A study of Mus musculus with 2 samples.

Results

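The genes that flank Loxl3 on mouse chromosome 6 were compared between spleen of knockout-labelled mice and spleen of wild-type mice. The set was a list of 36 neighbouring genes running from Tacr1 to Dusp11, and a probe belonged to a gene when its accession matched a RefSeq transcript of that gene. Probes of 35 of the 36 genes were found, 44 probes in all, and Ttc31 was not analysed here. Of these genes, 29 were measured, meaning that a probe was well above background on at least 1 array by the scanner software's own call, out of 13716 genes measured on the arrays.

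The tested RNA came from spleens of untreated Loxl3-/- males and the other RNA from spleens of untreated Loxl3+/+ males, hybridised to 1 one-colour Agilent microarray each. The labels call the animals healthy, and they state neither how the Loxl3 allele was made, nor the strain or its crossing history, nor whether animals were pooled. With 1 array per group there was no replicate and no test, so every value below describes these 2 arrays. The knockout-labelled array was brighter as a whole, with a 75th percentile of probe signals of 1400 against 974 on the wild-type array. Signals are therefore quoted as the scanner gave them, while differences are log2 values, knockout-labelled minus wild type, after each array's 75th percentile was subtracted. An error after ± is the scanner software's own error carried to the log2 difference, and it holds no variation between animals.

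Loxl3 encodes a lysyl oxidase-like amine oxidase. A gene that sits beside a targeted gene can differ in a knockout for reasons that have nothing to do with the lost protein. A mutation made in embryonic stem cells of one mouse strain keeps neighbouring DNA of that strain through later crosses, and an inserted cassette can alter promoters nearby. The region is crowded with genes of unrelated function, among them housekeeping genes of mitochondria, chromatin, protein folding and the cytoskeleton, which many cell types express. The arrays carry no sequence of the allele and no genotype of the region, so neither situation was tested here.

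The start regions of 4 flanking genes on which the comparison turns are shown first. Pole4 and Tet3 were the members past 2-fold, and Mthfd2 and Mob1a were adjacent members that both lay on the higher side. Each line gives RefSeq sequence of the build GRCm38.p6, from 250 bases before to 50 bases after an annotated transcript start, read 5′ to 3′ on the gene's strand. Capitals mark matches, on either strand, to the motifs searched.
Pole4, chr6:82652825-82653124, minus strand: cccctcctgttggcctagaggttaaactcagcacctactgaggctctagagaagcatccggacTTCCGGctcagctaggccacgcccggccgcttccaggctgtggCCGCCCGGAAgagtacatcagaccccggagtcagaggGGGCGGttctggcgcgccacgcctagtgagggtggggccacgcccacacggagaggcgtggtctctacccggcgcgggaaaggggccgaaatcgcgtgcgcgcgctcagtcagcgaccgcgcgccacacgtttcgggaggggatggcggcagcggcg
Tet3, chr6:83441629-83441928, minus strand: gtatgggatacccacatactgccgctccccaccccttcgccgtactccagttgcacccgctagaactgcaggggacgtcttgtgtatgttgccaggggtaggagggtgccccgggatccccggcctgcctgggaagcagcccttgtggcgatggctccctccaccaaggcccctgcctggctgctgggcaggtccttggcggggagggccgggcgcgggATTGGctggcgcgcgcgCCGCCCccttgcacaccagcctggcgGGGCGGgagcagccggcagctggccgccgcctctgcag
Mthfd2, chr6:83317555-83317854, minus strand: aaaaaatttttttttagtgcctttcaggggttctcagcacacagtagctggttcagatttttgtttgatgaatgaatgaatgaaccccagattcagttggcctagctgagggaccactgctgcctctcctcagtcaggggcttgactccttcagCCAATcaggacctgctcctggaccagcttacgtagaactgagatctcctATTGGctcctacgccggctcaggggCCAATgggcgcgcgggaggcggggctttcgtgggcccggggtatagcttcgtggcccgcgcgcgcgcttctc
Mob1a, chr6:83325789-83326088, plus strand: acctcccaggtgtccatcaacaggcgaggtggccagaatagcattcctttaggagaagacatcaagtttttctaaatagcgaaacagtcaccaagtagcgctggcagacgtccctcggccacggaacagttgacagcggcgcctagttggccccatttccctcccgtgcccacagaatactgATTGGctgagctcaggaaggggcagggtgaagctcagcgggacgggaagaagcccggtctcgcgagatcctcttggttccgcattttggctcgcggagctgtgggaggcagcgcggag
The motifs were the TATA box TATAAA, the CCAAT box CCAAT, the GC box GGGCGG, the E-box CACGTG, the cyclic AMP element TGACGTCA, the ETS core CCGGAA, the ATF4 composite element TTGCATCA and the palindromic NRF1 site, all read on both strands. The Pole4 window held 2 GC boxes and 2 ETS cores, and 1 of each overlapped in the run CCGCCCGGAA. The Tet3 window held 2 GC boxes and 1 CCAAT box, the Mthfd2 window 3 CCAAT boxes and the Mob1a window 1 CCAAT box. Over all 32851 start regions of the same length, 37.4% held a CCAAT box, 35.7% a GC box, 14.9% an ETS core and 13.6% a TATA box. The E-box was in 7.15%, the cyclic AMP element in 1.79%, the NRF1 site in 0.971% and the ATF4 element in 0.895%. Pole4's window was the most CpG-rich of the 4, with an observed over expected CpG ratio of 0.935, against 0.576 for Tet3, 0.646 for Mthfd2 and 0.747 for Mob1a.

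Start regions of 26 members were in the RefSeq table, 35 windows in all. Their median CpG ratio was 0.646, against 0.384 over all 32851 windows, so flanking genes mostly had CpG-rich starts. The GC box was found in 60% of the members' windows, the CCAAT box in 42.9% and the ETS core in 28.6%. Only the Slc4a5 window held TATAAA, and none held CACGTG. The Dusp11 window held both the NRF1 site and TTGCATCA, and the Dguok window held TGACGTCA. These matches describe letters in a window and show no binding. No entry was used for Dok1, Htra2, Aup1, Dqx1, Tlx2, Pcgf1, Lbx2, Ccdc142, Ttc31 and Actg2.

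Most listed genes around Loxl3 differed by less than 1.5-fold between the arrays after scaling, and among them Pole4 and Tet3 alone passed 2-fold. Genes of the interval that were not on the list, with Vax2 at −1.10 among them, are described below. Pole4, a small accessory subunit of DNA polymerase epsilon, was 3.09 times lower on the knockout-labelled array. Tet3, an enzyme that oxidises 5-methylcytosine in DNA, was 3.14 times higher there with its brightest probe, while another of its probes hardly differed. That probe was the brightest only through its signal in knockout-labelled RNA, as given below. The other 27 measured members lay within 1.60-fold of equality, between −0.68 and 0.67 on the log2 scale. Thus 1 of 29 members was at least 2-fold higher, where 2.57% of all genes were, and 1 of 29 was at least 2-fold lower, where 2.26% of all genes were.

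The members as a set lay where all genes lay. Their median difference was −0.13 with quartiles of −0.37 and 0.22, beside a median of −0.09 with quartiles of −0.34 and 0.19 over all 13716 genes. Of the 29 members, 13 were above the all-gene median and 16 below it. At 1.5-fold, 2 members were higher (Tet3 and Mob1a) and 2 lower (Pole4 and Cct7), against 8.04% and 9.48% of all genes. In 6 members (Pole4, Tet3, Mob1a, Mthfd2, Smyd5 and Cct7), 20.7% of them, the difference stood further than 2 scanner errors from the all-gene median, and 26.3% of all genes did so.

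**Figure D1:**
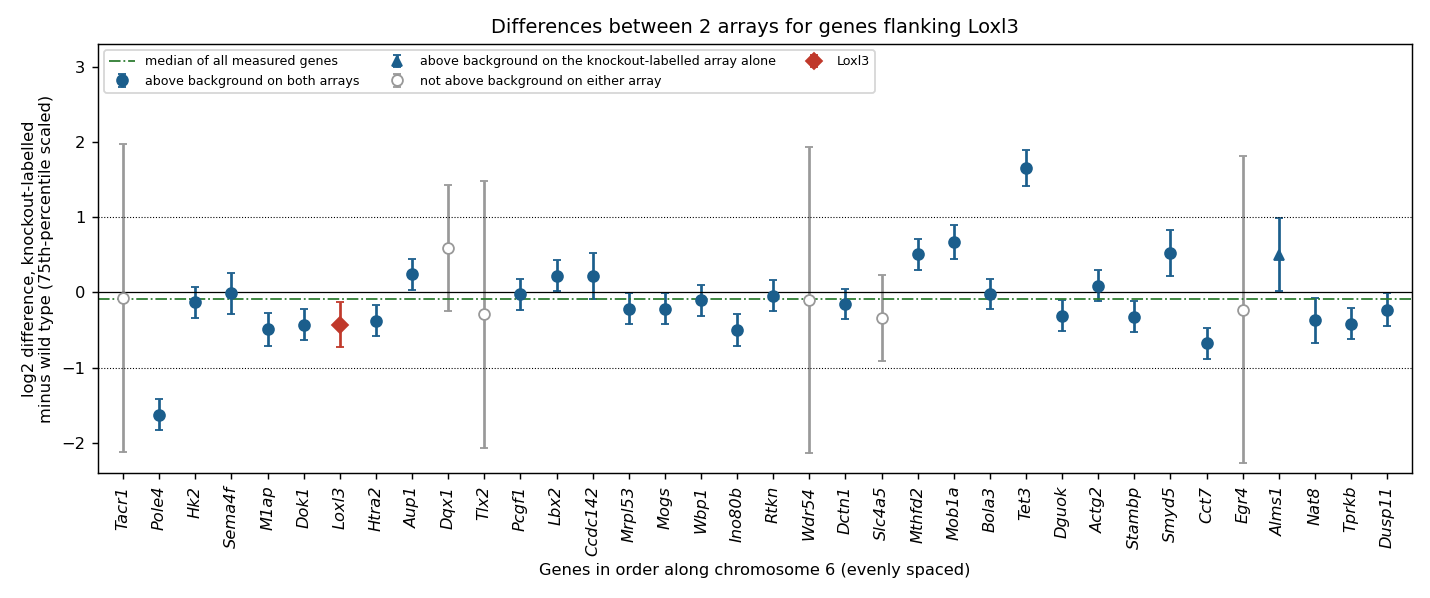
Log2 difference (knockout-labelled minus wild type) of the brightest probe of each flanking gene and of Loxl3, with genes evenly spaced in their order on chromosome 6. Bars are the scanner's error, dotted lines mark 2-fold, and the dash-dotted line is the all-gene median of −0.09; Pole4 lies at −1.63 and Tet3 at 1.65, and the other filled points lie between −0.68 and 0.67.

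**Figure D2:**
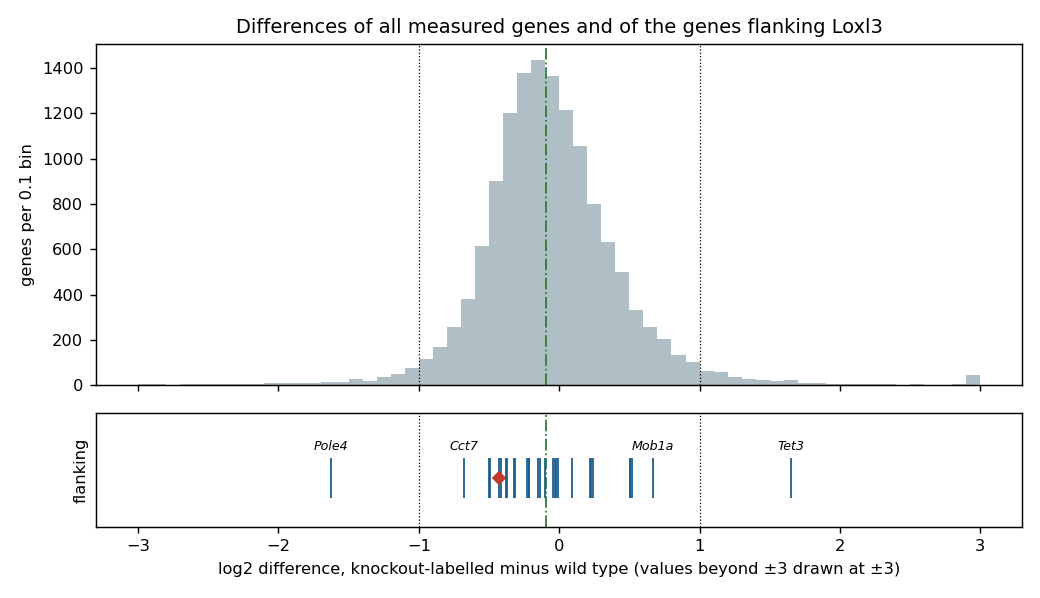
Histogram of the log2 differences of all 13716 measured genes (genes per bin, above) and the same quantity for the 29 measured flanking genes (ticks, below), with Loxl3 as a diamond. The flanking genes cover the bulk of the distribution, with Pole4 and Tet3 alone outside the dotted 2-fold lines.

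Loxl3 itself had a signal of 125 in knockout-labelled RNA and 117 in wild-type RNA with its only probe. After scaling this was a difference of −0.43 ± 0.29. The labels do not say which part of the gene was deleted, so this probe is no check of them. Dok1 and Htra2 adjoin it, and M1ap and Aup1 come next. M1ap, a gene of male meiosis, had signals of 375 and 368 on the knockout-labelled and wild-type arrays, a difference of −0.49 ± 0.21. Dok1, a docking protein that restrains signalling below tyrosine kinases in blood cells, had signals of 1717 and 1612 on those arrays, a difference of −0.43 ± 0.20. Htra2, a protease of the mitochondrial intermembrane space on the other side of Loxl3, had 6169 and 5573, a difference of −0.38 ± 0.20, and −0.12 ± 0.20 with its other probe. Next to Htra2, Aup1 had the opposite sign, at 0.24 ± 0.21. In the RefSeq records Loxl3 overlaps Htra2, and Htra2 overlaps Aup1, and which bases the probes cover was not examined. Of the 2 nearest genes on each side, Dok1, M1ap and Htra2 thus lay below the all-gene median of −0.09, by 0.28 to 0.40, and Aup1 lay above it by 0.33. Such values were common, since 17.7% of all genes were as low as Dok1 and 13.9% as low as M1ap.

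On the side before Loxl3, all 5 measured members were below 0, with a median of −0.43, where 8126 of 13716 genes were below 0. Sema4f lay above the all-gene median, and Sema4f and Hk2 turned to 0.14 and 0.01 with scaling on probes above background on both arrays. They were Pole4, the glycolytic kinase gene Hk2 (−0.13), the semaphorin gene Sema4f (−0.01), M1ap and Dok1. On the side after Loxl3, 24 members had a median of −0.08, with 9 above 0 and 15 below. Values did not run smoothly along the chromosome. Between adjacent measured members the median absolute difference was 0.41 over 28 pairs, beside 0.39 over 13690 pairs of adjacent genes across the genome. The member pairs skip measured genes of the interval that were not on the list, while the genome-wide pairs skip none. These medians are therefore not quite like measures.

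Both members past 2-fold, Pole4 and Tet3, were listed under chromatin and DNA, and they went in opposite directions. The 5 genes of that list had a median of −0.03, and the list was drawn up with earlier results known. Pole4 had a signal of 712 in knockout-labelled RNA and 1530 in wild-type RNA, so it was dimmer there even before the brighter array was scaled. The scaled difference was −1.63 ± 0.21 from its only probe, and 84 of 13716 genes were as low or lower. Neither Pole4 spot was marked as an outlier or as saturated, and the local background was 16 in knockout-labelled RNA and 17 in wild-type RNA. Other subunits of the same polymerase did not share its value. The catalytic subunit gene Pole was at −0.13, Pole2 at 0.02 and Pole3, the histone-fold partner of Pole4, at −0.37. Proliferation markers were lower on the knockout-labelled array too, with all 6 measured genes below 0 (−1.02 to −0.21, median −0.76) and a summed signal of 25344 against 29796 on the wild-type array. Their part in the Pole4 value was not tested.

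Tet3 had 3 probes that did not give the same picture. The brightest had a signal of 440 in knockout-labelled RNA and 97.4 in wild-type RNA, a difference of 1.65 ± 0.24, and 108 genes were as high or higher. The next had 155 and 97.6 on those arrays, a difference of 0.14 ± 0.27. In wild-type RNA these probes were thus alike, and the first was the brightest only through its knockout-labelled signal. The choice of the Tet3 value therefore rested on the same difference that it reports. The third was not detected above background in either RNA, with signals of 22.5 and 10.6. The gap of 1.51 between the 2 detected probes was wide for this platform. Among 2886 genes with more than 1 probe above background on both arrays, the median gap was 0.38, the 90th percentile 0.94, and 1.70% had a gap as wide as that of Tet3. No Tet3 spot was marked as an outlier. Of the related dioxygenase genes, Tet1 was at 0.53 and Tet2 at −0.23.

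The remaining chromatin genes lay within 1.5-fold. Ino80b, a subunit of the INO80 nucleosome remodeller, was at −0.50 ± 0.21, with signals of 494 in knockout-labelled RNA and 486 in wild-type RNA. Among 6 measured genes of that complex outside the interval, 4 were below 0 and 2 above, from Actr5 at −0.78 to Ino80 at 0.16. Pcgf1, a Polycomb group RING finger protein, was at −0.03 ± 0.21, and its partner genes Bcor, Kdm2b, Rnf2, Ring1 and Rybp ran from −0.31 to 0.32. Smyd5, a SET and MYND domain protein, was at 0.52 ± 0.30 with dim signals of 133 and 64.4 on the knockout-labelled and wild-type arrays. With normexp background correction Smyd5 was at 0.16 and Ino80b at −0.28.

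**Figure D3:**
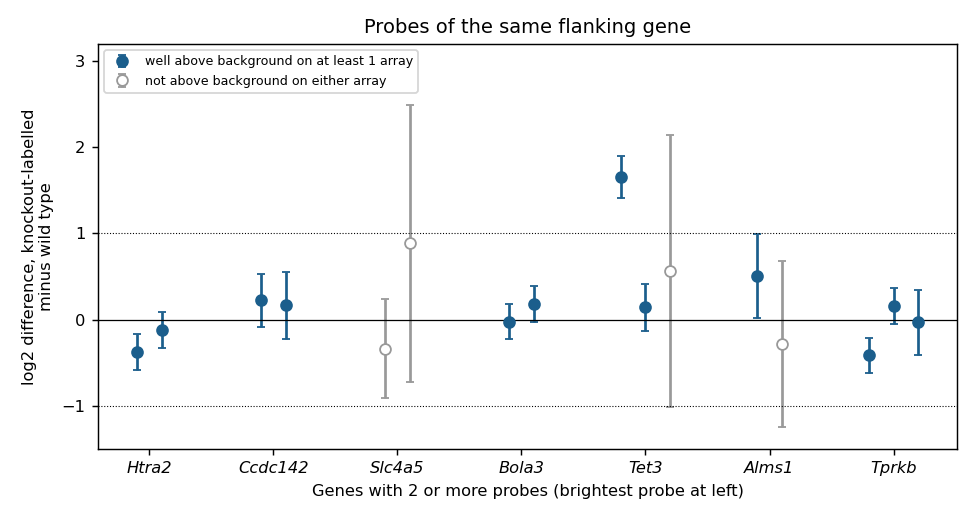
Log2 difference (knockout-labelled minus wild type) of every probe of the 7 flanking genes with more than 1 probe, brightest at left, with the scanner's error as bars and open points for probes not above background. The 2 filled Tet3 points lie at 1.65 and 0.14, and the filled points of Htra2, Ccdc142, Bola3 and Tprkb lie between −0.42 and 0.22.

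Mitochondrial genes were all measured, and 6 of 6 lay between −0.38 and 0.51 with a median of −0.18. Mthfd2, the mitochondrial folate enzyme that is high in dividing cells, had a signal of 1150 in knockout-labelled RNA and 563 in wild-type RNA, a difference of 0.51 ± 0.21. Its pathway did not share that value, since Mthfd1l was at −0.27, Mthfd1 at −0.27, Mthfd2l at −0.16, Shmt2 at 0.00 and Shmt1 at 0.10. Dguok, which phosphorylates purine deoxynucleosides for mitochondrial DNA, was at −0.31 ± 0.20, and Mrpl53, a protein of the mitochondrial ribosome, at −0.22 ± 0.20. Bola3, which helps to load iron-sulphur clusters, was at −0.02 and 0.18 with its 2 probes. Hk2, which binds the mitochondrial surface, was at −0.13 ± 0.20, while the hexokinase genes Hk1 and Hk3 were at −0.67 and −1.04. Hk3 is best known from myeloid cells, and all 6 granulocyte precursor markers were below 0 on these arrays (−2.64 to −0.80), with a summed signal of 12955 in knockout-labelled RNA and 48069 in wild-type RNA. Their part in the Hk3 value was not tested. In bulk RNA, fewer cells of a type and less RNA per cell cannot be told apart.

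Among signalling genes, Mob1a had the largest positive difference after Tet3. Mob1a, a coactivator of the LATS kinases of the Hippo pathway, had a signal of 390 in knockout-labelled RNA and 170 in wild-type RNA, a difference of 0.67 ± 0.23. It lies next to Mthfd2 on the opposite strand, with both transcripts running away from each other, and these neighbours were 1.59-fold and 1.42-fold higher. With normexp background correction the Mob1a difference fell to 0.32, while that of Mthfd2 was 0.54. Of the Hippo pathway genes outside the interval, the 4 detected in both RNAs lay between 0.07 and 0.70, with the kinase gene Stk4 at the top. Lats1, detected in knockout-labelled RNA alone, was higher by at least 1.32-fold by its bound. That bound was 0.40 on the log2 scale, with a larger scanner error of 0.58. Stambp, a deubiquitinase of endosomal sorting, was at −0.32 ± 0.20, and its relatives Stambpl1, Stam and Stam2 ran from −0.20 to 0.05. Rtkn was at −0.05 ± 0.21. The Dok1 relatives Dok2 and Dok3 were at 0.27 and −0.15.

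**Figure D4:**
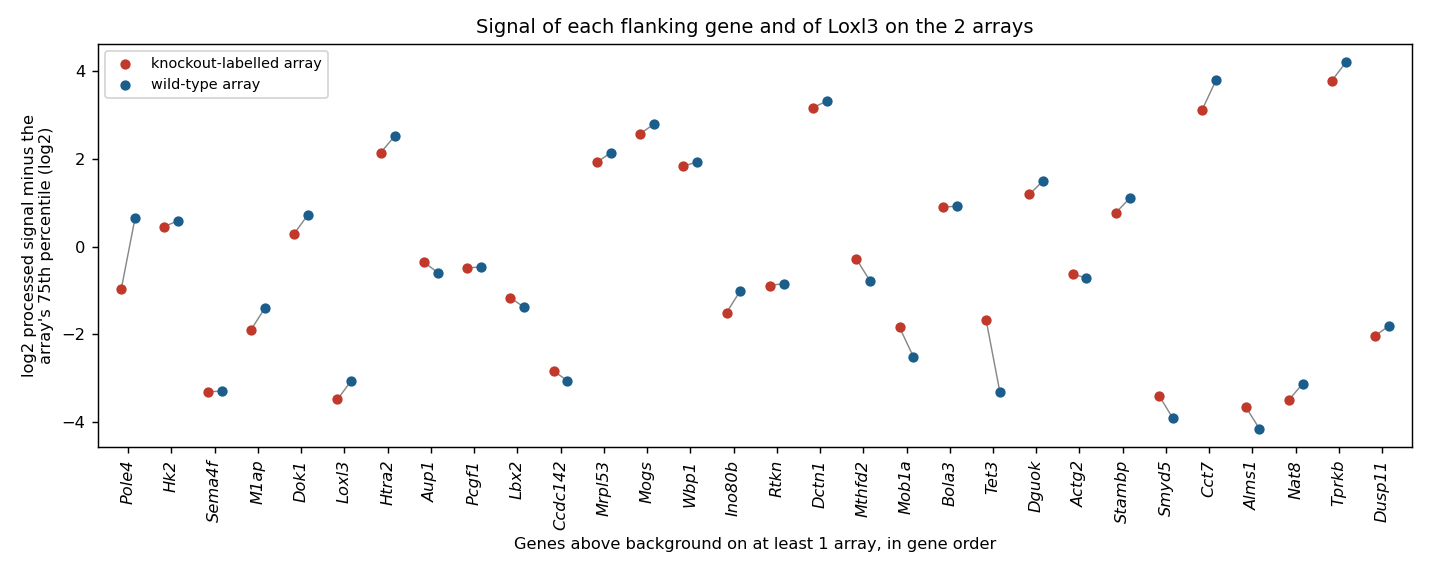
Scaled log2 processed signal of each measured flanking gene and of Loxl3, with the knockout-labelled array at left and the wild-type array at right of each pair. The slope within a pair is the difference; heights of different genes come from different probes and are not comparable. The steepest pairs are Pole4, at −0.98 and 0.65, and Tet3, at −1.67 and −3.32, on the knockout-labelled and wild-type arrays.

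In protein folding and the endoplasmic reticulum, Cct7 was the member that stood out. Cct7, a subunit of the TRiC chaperonin that folds actin and tubulin, had a signal of 12197 in knockout-labelled RNA and 13584 in wild-type RNA, a difference of −0.68 ± 0.20. The other 7 subunits of that ring ran from −0.35 (Cct5) to 0.36 (Cct3), 5 of them above 0, so Cct7 lay below every one of its partners on these arrays. With quantile normalization the Cct7 difference was −0.43. Mogs, the glucosidase that trims the first glucose from N-glycans, was at −0.22 ± 0.20, and its pathway partners Ganab and Prkcsh were at −0.36 and −0.37. Aup1, a protein of lipid droplets and endoplasmic reticulum degradation, had signals of 1095 and 646 on the knockout-labelled and wild-type arrays, the difference of 0.24 given above.

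Measured genes of the cytoskeleton, RNA processing and the remaining roles lay within 1.5-fold by their measured differences. Dctn1, the large subunit of the dynein activator dynactin, was at −0.15 ± 0.20, and its sign turned to 0.06 with quantile normalization. Among 8 dynactin genes outside the interval, 5 were below 0, and Actr1b, detected in knockout-labelled RNA alone, was higher by at least 2.07-fold. The Actr1b bound was 1.05 on the log2 scale, with a scanner error of 0.58. Actg2, the smooth muscle gamma-actin, was at 0.09 ± 0.21. The actin genes Acta2, Actb and Actg1 were at −0.30, −0.55 and −0.79, and the 5 smooth muscle markers ran from −0.30 to 1.13. Actin genes are near-identical in coding sequence, so their probes may share signal. Alms1, a centrosome and cilium protein, was detected in knockout-labelled RNA alone, with signals of 111 and 54.8 on the knockout-labelled and wild-type arrays. Its measured difference was 0.50 on the log2 scale, or 1.42-fold, with a scanner error of 0.49. Its bound equals this difference and so sets no lower limit. Another Alms1 probe was not above background on either array. With normexp background correction the Alms1 difference was −0.08.

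Tprkb, which belongs to the KEOPS complex of transfer RNA modification, had 3 detected probes at −0.42, 0.15 and −0.03, so its direction depended on the probe. With quantile normalization the value of its brightest probe, −0.42, became −0.09. Osgep, of the same complex, was at −0.44. Dusp11, a phosphatase that acts on RNA 5′ ends, was at −0.23 ± 0.22. Wbp1, a WW domain binding protein, was at −0.10 ± 0.20. Ccdc142, whose function is not well known, was at 0.22 and 0.16 with its 2 probes. Nat8, an acetyltransferase of kidney and liver, was at −0.37 ± 0.30. It has close relatives in the same cluster, and of these Nat8f4 was at 0.05 and Nat8f1 at −0.18.

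The 6 members with a probe that were not detected have no level here beyond background. Tacr1, the substance P receptor, had signals of 13.0 in knockout-labelled RNA and 9.53 in wild-type RNA, and Egr4, an early growth response factor, had 12.4 and 10.1. Tlx2, a homeobox factor of the enteric nervous system, Wdr54, Dqx1 and the bicarbonate transporter Slc4a5 were likewise undetected. The homeobox gene Lbx2 was detected, with 624 in knockout-labelled RNA and 372 in wild-type RNA, a difference of 0.22 ± 0.21, and it turned to −0.12 with normexp background correction. Sema4f was detected with dim signals of 141 and 98.9 on those arrays.

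Across all 76 listed partner genes outside the interval, 69 were measured, with a median of −0.08, 1 gene at least 2-fold higher (Actr1b) and 1 at least 2-fold lower (Hk3). The same counts in the 29 flanking genes were 1 and 1 with a median of −0.13. In either direction this was 2.90% of the partners and 6.90% of the members, against 4.83% of all genes. Set against the median difference of its own partners, a member stood higher by more than 0.5 in 6 cases, Tet3 by 1.5, Mthfd2 and Smyd5 by 0.66, Actg2 by 0.64, Hk2 by 0.53 and Mob1a by 0.52. It stood lower by more than 0.5 in 3 cases, with Pole4 at −1.49, Cct7 at −0.88 and Htra2 at −0.74. Most of these partner lists hold 2 to 5 measured genes, so their medians are loose. These values used each member's brightest probe. The other detected Tet3 probe, at 0.14, lay near the partner median of 0.15. For Htra2 the probe at −0.38 was used, and its other probe was at −0.12. No like count was made for other genes.

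**Figure D5:**
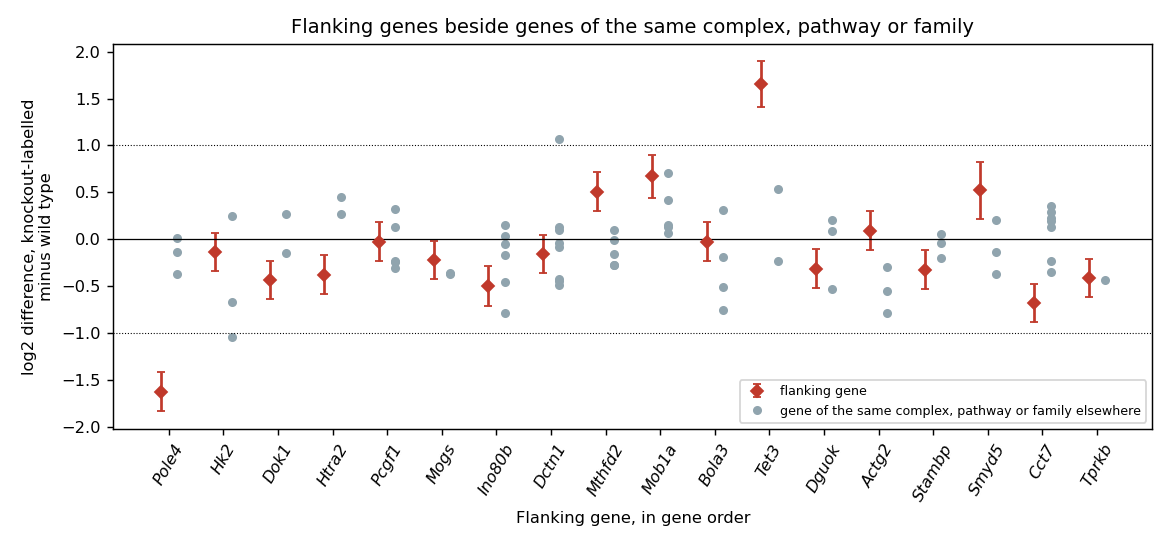
Log2 difference (knockout-labelled minus wild type) of 18 measured flanking genes (diamonds, with the scanner's error) beside listed genes of the same complex, pathway or family outside the interval (circles). Pole4 lies below its 3 circles (−0.37 to 0.02), Cct7 below its 7 (−0.35 to 0.36) and Tet3 above its 2 (−0.23 and 0.53), while Mob1a at 0.67 has Stk4 at 0.70 beside it. Each diamond is the gene's brightest probe, and the other detected Tet3 probe, at 0.14, is not drawn.

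The interval from Tacr1 to Dusp11 holds other RefSeq genes that were not on the list. Probes were found for 28 of them and 15 were measured, with a median of −0.10. The homeobox gene Vax2 was the lower one past 2-fold, with signals of 2139 in knockout-labelled RNA and 3187 in wild-type RNA and a difference of −1.10 ± 0.20. Cyp26b1 was at −0.89 ± 0.21 and Sfxn5 at −0.63 ± 0.21. With Vax2 these made 3 of the 15 at least 1.5-fold lower, where 9.48% of all genes were. At 1.5-fold higher there was 1 by its measured difference, where 8.04% of all genes were. Cd207, encoding langerin of dendritic cells, was detected in knockout-labelled RNA alone, with 94.0 against 27.6 on the wild-type array, at least 1.56-fold higher by its bound. That bound was 0.64 on the log2 scale, with a larger scanner error of 0.78. Listed and unlisted genes together, 44 measured genes, had 2 at 2-fold higher and 2 at 2-fold lower, with a median of −0.12. In either direction this was 9.09% of the 44 genes and 13.3% of the 15 unlisted ones, against 4.83% of all genes. Cd207 counts as 2-fold higher in these shares by its measured difference alone. With Cd207 at its bound, 1 gene of the 44, Tet3, was 2-fold higher.

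Beyond the interval, the 10 measured genes before the interval had a median of 0.43, with 4 of them at least 2-fold higher by their measured differences and 0 lower. Those 4 were Reg genes, known from pancreatic acinar cells, namely Reg3d at 1.36, Reg2 at 1.73 and Reg1 at 4.83, and Reg3b, detected in knockout-labelled RNA alone. The 3 genes closest to the members, Gcfc2, Mrpl19 and Eva1a, were at 0.29, 0.07 and −0.08. All 6 acinar markers were higher on the knockout-labelled array (4.0 to 4.83) and above background on both arrays, with a summed signal of 90906 against 3448 on the wild-type array. Their part in the members' values was not tested. The 10 measured genes after Dusp11 had a median of −0.20 and none past 2-fold, between −0.99 (Add2) and 0.29. The 691 other measured genes of chromosome 6 had a median of −0.09, with 7.67% of them at 2-fold in either direction, against 6.90% of the members and 4.83% of all genes. All 5 B cell, 5 T cell and 5 red pulp macrophage markers were above background on both arrays. So was every marker of the other cell type lists, the acinar markers included, so detection alone is no check of the tissue label.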

How the data were processed

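RNA of spleen from knockout-labelled and wild-type mice was measured on 1 one-colour array each. The deposited scanner files hold linear intensity per spot, made by Feature Extraction 11.0.1.1 with the protocol GE1_1100_Jul11 and probe annotation on mm9, per the file headers. The authors also deposited a table of processed log2 values, whose steps are not given in the sources used here. Its values nearly equal those of quantile normalization, with 329 genes at 2-fold higher and 306 lower in both.

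Control and outlier-marked spots were left out, and log2 signals of a probe's remaining spots were averaged (39420 probes). Each array's 75th percentile was subtracted. Probe accessions, stripped of versions, were looked up among RefSeq transcripts (GRCm38.p6), naming 27226 probes of 20655 genes. That build differs from the array's, so it served for names, gene order and start sequences. A gene took its brightest probe well above background on at least 1 array. Brightness was the mean of the scaled log2 signals of both arrays, so a high signal on 1 array could decide the choice. Counts of 2-fold genes used measured differences, including 682 genes above background on 1 array alone. Values of such genes are written as bounds ("at least"), except for Alms1. A bound is the bright signal divided by the dim signal, or by the dim array's weakest detected signal where that was larger. Where the dim signal itself was used, as for Alms1, the bound is the measured difference and no lower limit. It leaves out the scanner error, which was larger than the bound for some of these genes.

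With 1 array per group no spread could be estimated, so there is no p-value. The median scanner error was 0.205 over genes. Over 251 probes with 8 or more usable spots the log2 difference had a median SD of 0.112. All values carry technical error only, and the number of arrays limits precision.

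Members and lists were chosen with earlier results of these data known. All members are accounted for; those past 2-fold, the largest differences and those whose probes differ in sign are given in full. Alternatives were scaling, normexp correction (limma 3.58.1, offset 50, on median spot and background signals), filters, probe choice and the deposited table. Scripts ran in Python 3.11.15 and were tested on simulated data.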

Additional observations from a re-analysis of the deposited data

How the results depend on the processing

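Over 8 other settings of scaling, background correction, filter, probe choice or data source, Pole4 stayed below −1.48 and past 2-fold in each. Tet3 passed 2-fold in 7 of them, and with the median of a gene's detected probes its value was 0.90, which left 0 members at 2-fold higher. With a 1.5-fold threshold 2 members were higher and 2 lower. The sign was the same under all of these settings for 18 of 29 members, among them M1ap, Dok1, Htra2, Mthfd2, Mob1a, Smyd5 and Cct7, and it turned under at least 1 for 11. Of 231 such member values, 15 moved by more than the gene's scanner error. Many of the others could not move that far. Changing the filter on dim probes left each measured member's brightest probe, and so its value, in place, apart from Alms1. Alms1 had no value when only probes above background on both arrays were kept. Scaling on the median or on probes above background on both arrays shifts all genes alike, by −0.09 and 0.15, less than any member's scanner error. Quantile normalization and the deposited table gave nearly the same values. The members' median ran from −0.23 with scaling on each array's median to 0.01 with scaling on probes above background on both arrays, a setting chosen after seeing the data that moved the median of all genes by 0.15.

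Among all genes, 352 were higher and 310 lower at 2-fold, 53.2% of these calls higher. Scaling on the median gave 41.2%, and scaling on probes above background on both arrays 70.9%. Normexp correction gave 151 and 186 genes, no filter 613 and 699, and the 1.5-fold threshold 1103 and 1300. No paired analysis was possible because each group has 1 array. Dim probes, such as those of Smyd5, Alms1, Ccdc142 and Nat8, carry scanner errors of 0.30 to 0.49.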
